A study of Homo sapiens with 8 samples.

Results

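Crosslink sites of dyskerin and GAR1 were examined in 9 long non-coding RNA (lncRNA) genes that carry small nucleolar RNAs (snoRNAs). These were GAS5, SNHG1, ZFAS1, SNHG5, SNHG6, SNHG8, SNHG15, SNHG16 and EPB41L4A-AS1, out of the 62700 genes of GENCODE 44. Only the RNA around the snoRNAs was considered. A site belonged to a host when it lay in the gene on its strand and neither inside a snoRNA or small Cajal body RNA (scaRNA) nor within 5 nt upstream of one. Over the 8 libraries there were 257 such positions, out of 1623913 positions called in the whole series. They fell into exons, which are the union over all transcripts except those annotated as retained introns, or into the introns left between them.

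Dyskerin is the pseudouridine synthase of the H/ACA ribonucleoprotein complex, and GAR1 is another core protein of that complex. H/ACA snoRNAs guide this complex to the uridines it modifies, whereas C/D snoRNAs guide 2′-O-methylation by other proteins. In vertebrates most snoRNAs are released from introns by splicing followed by exonuclease trimming, which stops at the ends of the assembled particle. Several of the host transcripts, such as GAS5, start with a terminal oligopyrimidine tract like ribosomal protein mRNAs, carry no long conserved reading frame and are short-lived in the cytoplasm. The spliced host RNA and the mature snoRNA are therefore separate products of the same transcription unit.

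The libraries came from U2OS, a human osteosarcoma cell line, and were made by iCLIP, in which the position just before the start of a cDNA marks the nucleotide a protein was crosslinked to. Cells received 1500 J/m2 of ultraviolet light at 254 nm, nuclei were isolated, and complexes were precipitated with beads carrying an antibody against dyskerin, an antibody against GAR1, or mouse IgG. The labels give 2 libraries for each of 4 groups, which are dyskerin, GAR1, IgG-(Dyskerin) and IgG-(GAR1), and no cell was depleted of a gene or treated with a drug. The study lists the GAR1 antibody as a rabbit reagent, so mouse IgG was not its species-matched control. The study describes the replicates of each protein as independent experiments, and the labels number them without naming a culture, so the spread behind every p-value is that between these samples. Significant sites held 1693951 and 1875459 cDNAs in the dyskerin libraries, 585454 and 1976518 in GAR1, 146514 and 8183 in IgG-(Dyskerin) and 295255 and 10701 in IgG-(GAR1). Outside snoRNAs and scaRNAs lay 81.7% and 78.2% of these cDNAs for dyskerin, 5.54% and 6.57% for GAR1, 77.6% and 28.8% for IgG-(Dyskerin) and 5.63% and 15.5% for IgG-(GAR1). Of 7 mesenchymal marker genes, 6 had exonic sites in both dyskerin libraries, with COL1A1 and VIM among them. None of 8 markers of blood or epithelial cells had an exonic site in a dyskerin or IgG library, and CDH1 had 5 cDNAs in GAR1 replicate 2.

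The genes carried 32 annotated snoRNAs, 28 of the C/D and 4 of the H/ACA class. SNHG8 carries SNORA24, SNHG15 carries SNORA9 and EPB41L4A-AS1 carries SNORA13, all of the H/ACA class. GAS5, on the minus strand of chr1:173858559-173868882 (GRCh38 throughout), carries 11 snoRNAs, of which 10 are C/D. SNHG1, the host of SNORD22 and its neighbours on chr11:62851978-62855953, carries 9 C/D snoRNAs. ZFAS1 on the plus strand of chr20:49278178-49299600 carries SNORD12C, SNORD12B and SNORD12. SNHG5 on the minus strand of chr6:85650491-85678932 carries SNORD50A and SNORD50B, SNHG6 carries SNORD87, and SNHG16 carries SNORD1A, SNORD1B and SNORD1C. The smaller hosts are SNHG8 at chr4:118278703-118285316, SNHG15 at chr7:44983019-44986961 and EPB41L4A-AS1 at chr5:112160526-112164818.

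The sites fell into 2 kinds of place, and their sequences are given first. The first kind lay a few nucleotides before a snoRNA. The windows below, each of 30 nt and read 5′ to 3′ on the host strand of GRCh38, are shown because they held the most such cDNAs in GAS5, SNHG1, SNHG8, SNHG15 and EPB41L4A-AS1, and capitals mark the first bases of the snoRNA.
GAS5 before SNORD47 (chr1:173864431-173864460, minus): gatgattttcagtgtAACCAATGATGTAAT
GAS5 before SNORD80 (chr1:173864889-173864918, minus): tgttgtaaagccgatACAATGATGATAACA
SNHG1 before SNORD29 (chr11:62853954-62853983, minus): ccaccaagtaggcagTTTCTATGATGAATC
SNHG8 before SNORA24 (chr4:118279175-118279204, plus): ttctggattgtgaatCTCCATGTATCTTTG
SNHG15 before SNORA9 (chr7:44985496-44985525, minus): ttgggtgaatgagggTAGCAAGCCTCCAGC
EPB41L4A-AS1 before SNORA13 (chr5:112161470-112161499, plus): acctcacgcagtgtcAGCCTTTGTGTTGCC

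The other kind lay far from any snoRNA, in ZFAS1, SNHG5 and SNHG6. Windows of 30 nt that held the most positions called in both dyskerin libraries are shown for ZFAS1 and SNHG5, and capitals mark those positions. In ZFAS1 they came from exon 2, from the end of the intron before it and from a distal window. The distal window spans the end of an intron and the start of the exon that follows. In SNHG5 they came from the first exon.
ZFAS1 exon 2 (chr20:49279132-49279161, plus): ATTTtgGaagagggaGtCaCcACtgGacCT
ZFAS1 end of intron 1 (chr20:49279078-49279107, plus): aacgccCtTTaTtTGttggTTCacaggTta
ZFAS1 distal (chr20:49289030-49289059, plus): CaCCTtcTTtcttagaaActggcGatggaA
SNHG5 exon 1 (chr6:85678720-85678749, minus): ggctgcgcacttcggtcTTtTacgtcggcc

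Few cDNAs lay outside the snoRNAs of these genes. Together the hosts held 244 and 355 such cDNAs in the dyskerin libraries, 12 and 27 in GAR1, 28 and 0 in IgG-(Dyskerin), and 0 and 0 in IgG-(GAR1). As a share of all peak cDNAs of the 9 loci, this came to 0.804% (95% Wilson interval 0.710 to 0.911) and 1.10% (0.989 to 1.22) for dyskerin and 0.0316% (0.0181 to 0.0551) and 0.0228% (0.0157 to 0.0332) for GAR1. In IgG-(Dyskerin) the share was 1.36% (0.943 to 1.96) in replicate 1, and 0 of 353 cDNAs in replicate 2 allows up to 0.850%. In IgG-(GAR1), 0 of 16200 cDNAs allows up to 0.0185% and 0 of 405 allows up to 0.741%. The dyskerin and GAR1 intervals did not overlap, and replicate 1 of IgG-(Dyskerin) lay above both dyskerin libraries. Intervals and limits cover counting error only. No called site lay on the antisense strand of any of the 9 genes in any library.

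**Figure D1:**
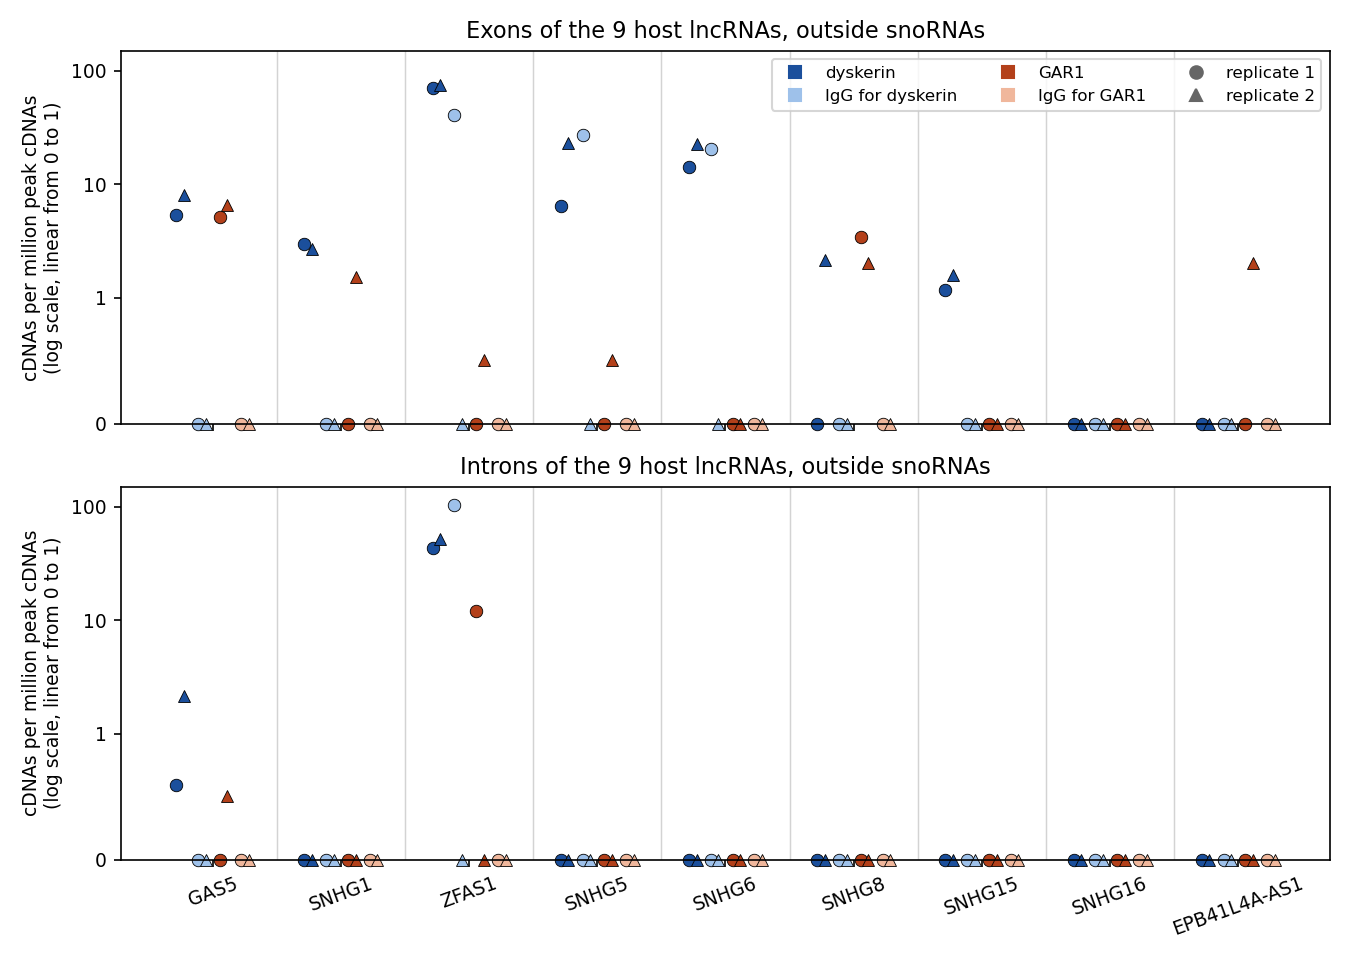
Peak cDNAs in exons (top) and introns (bottom) of each host, outside snoRNAs, as CPM (cDNAs per 1000000 peak cDNAs of the library) on a log axis that is linear from 0 to 1. Each symbol is 1 library, with circles for replicate 1 and triangles for replicate 2. In dyskerin ZFAS1 stood highest in both panels, and SNHG16 had no site. Replicate 1 of IgG-(Dyskerin) lay below both dyskerin libraries in ZFAS1 exons and above both in ZFAS1 introns. It lay above both in SNHG5 exons and between them in SNHG6 exons.

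ZFAS1, a transcript that starts beside the ZNFX1 gene and runs away from it, was the only host with over 100 exonic cDNAs in a library. Its exons held 119 and 141 cDNAs in the dyskerin libraries, 0 and 1 in GAR1, 6 and 0 in IgG-(Dyskerin), and 0 and 0 in IgG-(GAR1). Scaled to cDNAs per 1000000 peak cDNAs (CPM) these were 70.3 and 75.2 for dyskerin, 0 and 0.506 for GAR1, and 41.0 and 0 for IgG-(Dyskerin). Both dyskerin libraries were above both GAR1 libraries, and above both IgG libraries as well, while the empty IgG replicate held so few cDNAs that 3 of them would already be 367 CPM.

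ZFAS1 introns showed another order. They held 73 and 98 cDNAs in dyskerin, 7 and 0 in GAR1, 15 and 0 in IgG-(Dyskerin) and none in IgG-(GAR1). On the CPM scale dyskerin was at 43.1 and 52.3, GAR1 at 12 and 0, and IgG-(Dyskerin) at 102 and 0. Summed over the introns, IgG replicate 1 thus lay above both dyskerin libraries, and IgG replicate 2 below both. The order differed between stretches. At chr20:49287406-49287427 IgG replicate 1 held 6 cDNAs and dyskerin 8 and 0, and at chr20:49288964-49288968 it held 4 and dyskerin 0 and 0. In the 50 nt of intron before exon 2 it held 1 and dyskerin 30 and 49. In the 50 nt before the distal exon at chr20:49289045 it held 4 and dyskerin 20 and 39.

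SNHG6, the host of SNORD87, held 24 and 42 exonic cDNAs in dyskerin (14.2 and 22.4 CPM), 0 and 0 in GAR1, 3 and 0 in IgG-(Dyskerin) (20.5 and 0 CPM) and none in IgG-(GAR1). SNHG5, the host of the SNORD50 pair, held 11 and 43 exonic cDNAs in dyskerin (6.49 and 22.9 CPM), 0 and 1 in GAR1, 4 and 0 in IgG-(Dyskerin) (27.3 and 0 CPM) and none in IgG-(GAR1). In both genes the deeper IgG-(Dyskerin) library lay within or above the range of the dyskerin pair. Neither gene had a site in its introns under the union of exons used here, although many SNHG6 sites lie outside the canonical exons.

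GAS5, a transcript that accumulates in growth-arrested cells, held exonic cDNAs at a like level with both antibodies. There were 9 and 15 in dyskerin (5.31 and 8.0 CPM), 3 and 13 in GAR1 (5.12 and 6.58 CPM) and 0 in all 4 IgG libraries. Its introns held 1 and 4 cDNAs in dyskerin, 0 and 1 in GAR1, and none in IgG. The dyskerin and GAR1 values overlapped, with GAR1 replicate 2 between the dyskerin replicates.

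The remaining genes were near or at 0. SNHG1 exons held 5 and 5 cDNAs in dyskerin and 0 and 3 in GAR1. SNHG8 exons held 0 and 4 in dyskerin and 2 and 4 in GAR1. SNHG15 exons held 2 and 3 in dyskerin and none in GAR1, while EPB41L4A-AS1 exons held none in dyskerin and 0 and 4 in GAR1. All IgG libraries were at 0 for these genes, and SNHG16 had no site outside its snoRNAs in any of the 8 libraries. A value of 0 says that no position passed the call in that library, not that no cDNA was sequenced there, and 3 cDNAs over a group correspond to 0.840 CPM for dyskerin, 1.17 for GAR1, 19.4 for IgG-(Dyskerin) and 9.81 for IgG-(GAR1).

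Per kb of exon, the mean level in the dyskerin libraries was 8.94 CPM for ZFAS1, 7.93 for SNHG6, 1.91 for GAS5, 1.20 for SNHG5, 0.882 for SNHG1, 0.365 for SNHG15, 0.165 for SNHG8, and 0 for SNHG16 and EPB41L4A-AS1. Between GAS5 and SNHG5, neighbours in this order, the spread between replicates was larger than the gap, since SNHG5 stood at 6.49 and 22.9 CPM in the dyskerin replicates. The order depended on which exons were counted. In the exons of the Ensembl canonical transcript alone, an alternative chosen after seeing the data, GAS5, SNHG1, SNHG8, SNHG16 and EPB41L4A-AS1 had 0 cDNAs in every library. ZFAS1 kept 95 and 128, SNHG5 11 and 40, SNHG6 10 and 16 and SNHG15 2 and 3 in the dyskerin libraries, and GAR1 had none in any of the 9 genes. The SNHG15 cDNAs lay 8 and 10 nt before SNORA9, in canonical exon 2, which SNORA9 touches. The annotated isoforms of SNHG1, SNHG8, SNHG15 and EPB41L4A-AS1 cover the whole gene, so these genes have no intron left under the wider definition.

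In GAS5, SNHG1, SNHG8, SNHG15 and EPB41L4A-AS1 every position outside the snoRNAs lay 6 to 14 nt upstream of a snoRNA start. Over the 9 genes there were 39 such positions, before 20 of the 32 snoRNAs, and none between 15 and 50 nt upstream. GAS5 had 18 of them, before 8 of its snoRNAs. They held 17 and 32 cDNAs in dyskerin, 5 and 27 in GAR1, and 0 in the 4 IgG libraries. Of all cDNAs outside the snoRNAs this was 17 of 244 and 32 of 355 for dyskerin, but 5 of 12 and 27 of 27 for GAR1. Replicate 2 of GAR1 therefore had no site of any other kind in these genes, and the other 7 cDNAs of replicate 1 lay in a single stretch of a ZFAS1 intron.

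The window before SNORD47 held 3 and 10 cDNAs in dyskerin, 2 and 2 in GAR1 and none in IgG. Its highest dyskerin position, chr1:173864453, 8 nt upstream, had 1 and 10 cDNAs in dyskerin and 1 and 0 in GAR1. The window before SNORD80 held 4 and 2 in dyskerin and 1 and 10 in GAR1, with the highest GAR1 position at chr1:173864909, 6 nt upstream, at 3 and 1 cDNAs in dyskerin and 1 and 6 in GAR1. Before SNORA24 in SNHG8 there were 0 and 4 in dyskerin and 2 and 4 in GAR1, and before SNORA9 in SNHG15 there were 2 and 3 in dyskerin and none in GAR1. The EPB41L4A-AS1 sites all lay before SNORA13, with 0 and 4 cDNAs in GAR1. Both snoRNA classes were thus represented. Which of the dyskerin replicates was higher changed from window to window, whereas GAR1 replicate 2 was never below GAR1 replicate 1 and also held more peak cDNAs in total.

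These positions stood at the foot of the signal of the snoRNAs themselves. Summed over the snoRNAs of the 9 genes, the 5 nt just upstream held 6171 and 6736 cDNAs in dyskerin, 8355 and 27998 in GAR1, 662 and 89 in IgG-(Dyskerin) and 4833 and 88 in IgG-(GAR1). At 1 nt upstream there were 2522 and 2582 cDNAs in dyskerin and 3097 and 10121 in GAR1, at 3 nt 1231 and 1379 in dyskerin and 1700 and 5675 in GAR1, and at 5 nt 11 and 20 in dyskerin and 32 and 128 in GAR1. At 6 nt, the first position counted here, there were 4 and 2 in dyskerin and 1 and 10 in GAR1. Beyond the margin of 5 nt the counts were low and did not fall evenly, and all libraries were at 0 beyond 14 nt. At 8 nt there were 2 and 16 in dyskerin, with 10 of the 16 at chr1:173864453 before SNORD47. For every 100 cDNAs inside the snoRNAs, those at 6 to 15 nt upstream numbered 0.0711 and 0.127 in dyskerin and 0.0169 and 0.0299 in GAR1. With no margin the sites before the snoRNAs enter the host counts, and the share of locus cDNAs outside the snoRNAs then differed between the 4 antibody and the 4 IgG libraries by −5.39 percentage points, against 0.149 with the margin.

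**Figure D2:**
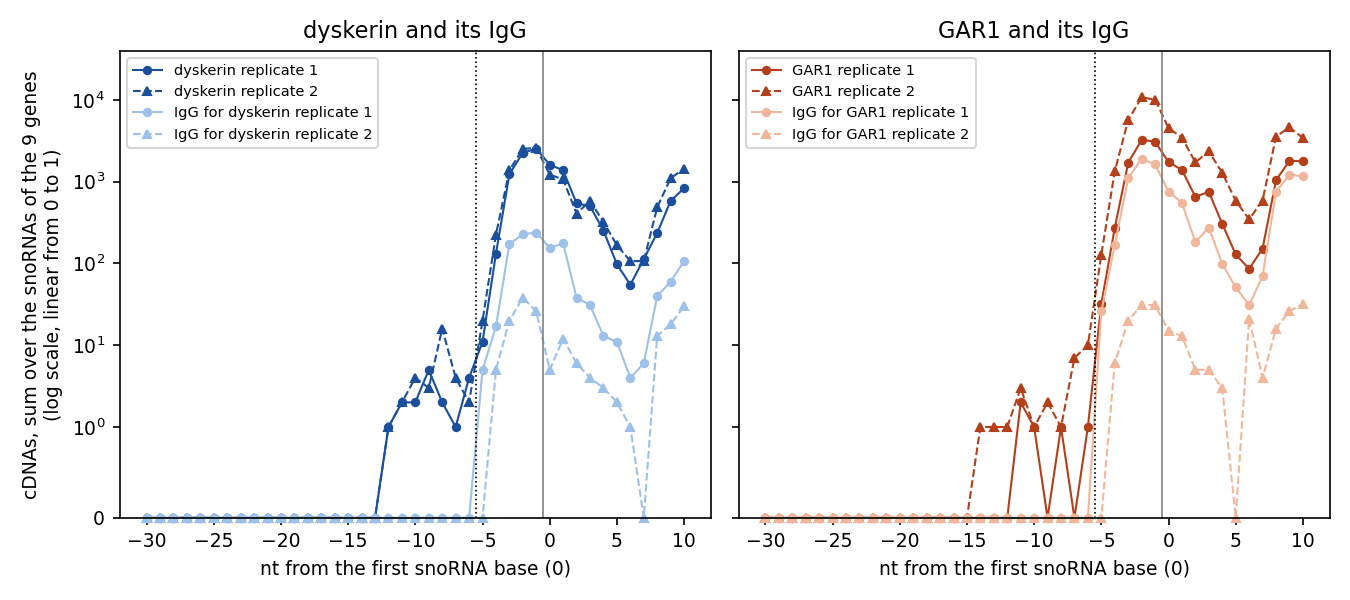
cDNAs of significant sites by distance from the first base of the snoRNA (0), summed over the snoRNAs of the 9 genes, with dyskerin and its IgG on the left and GAR1 and its IgG on the right. Each line is 1 library on a log axis that is linear from 0 to 1, the dotted line marks the 5 nt margin and the solid line the snoRNA start. In dyskerin replicate 1 the count is 2522 at 1 nt upstream, 11 at 5 nt and 4 at 6 nt, and all libraries are at 0 beyond 14 nt.

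ZFAS1, SNHG5 and SNHG6 were the only hosts with sites more than 50 nt from a snoRNA in any library. They were also among the 4 hosts whose snoRNAs had the fewest dyskerin cDNAs. ZFAS1 snoRNAs were at 698 and 799 CPM in dyskerin, SNHG5 snoRNAs at 609 and 453, SNHG6 snoRNAs at 406 and 351 and SNHG16 snoRNAs at 325 and 242, whereas the other hosts ranged from 1099 to 5475. Across the 9 genes Spearman's rho between the mean snoRNA level and the mean distant level in dyskerin was −0.51. It is given as a description, because all points share the same libraries and their depth. SNHG16 ran against it, with few snoRNA cDNAs and no distant site.

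**Figure D3:**
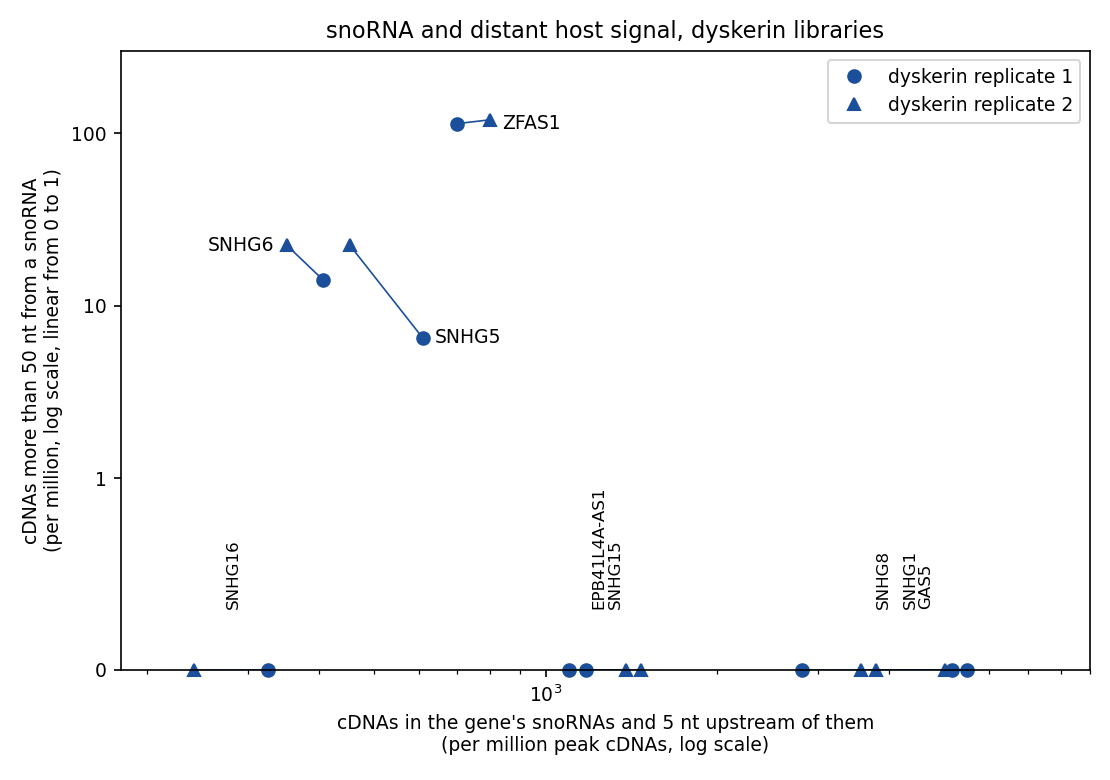
CPM in the snoRNAs of each host (x axis, log scale) against CPM more than 50 nt from any snoRNA (y axis, log scale, linear from 0 to 1) in the dyskerin libraries, with a circle for replicate 1 and a triangle for replicate 2 joined by a line. ZFAS1, SNHG5 and SNHG6 lie above 0 at the low end of the x axis, and the other 6 genes lie at 0.

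ZFAS1 had 91 positions in dyskerin replicate 1 and 116 in replicate 2, with 51 in both. Its densest stretch ran over 122 nt from chr20:49279078 to chr20:49279199, covering the end of the first intron and most of exon 2, and began 50 nt downstream of SNORD12C. This stretch held 112 and 140 cDNAs in dyskerin, none in GAR1 and 7 and 0 in IgG-(Dyskerin). The highest intronic position, chr20:49279092, had 11 and 12 cDNAs in the dyskerin replicates and none in the other 6 libraries, a mean of 6.45 ± 0.067 CPM (SD, n = 2). The highest exonic position, chr20:49279193 in exon 2, had 6 and 8 cDNAs in dyskerin and none elsewhere, a mean of 3.90 ± 0.51 CPM (SD, n = 2). The distal stretch at chr20:49288999-49289073, 8227 nt beyond SNORD12, held 44 and 52 cDNAs in dyskerin, none in GAR1 and 4 and 0 in IgG-(Dyskerin). Exon 3 held 13 and 15 cDNAs from its first base on, at chr20:49280485-49280513, with none in GAR1 or IgG. The replicates were close in these stretches but not in all. Positions near the start of the gene, at chr20:49278696-49278705, had 0 and 8 cDNAs in dyskerin, and an intronic stretch at chr20:49283660-49283682 had 12 and 0 in dyskerin and 7 and 0 in GAR1, that is in replicate 1 of both proteins.

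SNHG5 sites were spread over several exons. The cluster at chr6:85678720-85678735, 13 to 28 nt from the canonical transcription start and 1062 nt upstream of SNORD50B, held 9 and 22 cDNAs in dyskerin and none in the other libraries. It contains the highest position, chr6:85678732, with 2 and 9 cDNAs in dyskerin. Further into exon 1, chr6:85678166-85678181 held 0 and 8 in dyskerin and 3 and 0 in IgG-(Dyskerin). Only 3 SNHG5 positions were shared between the dyskerin replicates, out of 7 and 20. SNHG5 lies inside a readthrough protein-coding gene on the same strand, so its sites cannot be assigned to SNHG5 alone. ZFAS1 also overlaps other annotated genes on its strand, so part of its sites may not belong to it alone. With only sites in a single gene, the antibody minus IgG difference in the share outside snoRNAs was 0.0602 percentage points, against 0.149.

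SNHG6 had 1 hot spot. Of its 24 positions 22 lay within 48 nt, 326 nt or more downstream of SNORD87, and held 22 and 42 cDNAs in dyskerin, none in GAR1 and 3 and 0 in IgG-(Dyskerin). The highest position had 4 and 10 cDNAs in dyskerin and 1 in IgG-(Dyskerin) replicate 1. The dyskerin replicates shared 8 positions, out of 13 and 19.

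The stretches of ZFAS1 and SNHG6 straddled 3′ splice sites (acceptors), where an intron ends and the next exon begins. In the printed intron 1 window of ZFAS1, exon 2 begins at chr20:49279104, after the last ag of the intron. Within 50 nt of this acceptor the intron side held 30 and 49 cDNAs in dyskerin and the exon side 43 and 55, with 1 and 6 in replicate 1 of IgG-(Dyskerin). In the distal window the exon begins at chr20:49289045, used by 8 annotated transcripts but not by the canonical one, with 20 and 39 dyskerin cDNAs on the intron side and 24 and 13 on the exon side. In SNHG6 the acceptor of canonical exon 3 had 14 and 26 on the intron side and 8 and 16 on the exon side. At the other 4 acceptors with sites, in ZFAS1 and SNHG5, no called site lay on the intron side within 50 nt.

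Leaving aside the sites just upstream of snoRNAs, 154 of 227 and 227 of 323 dyskerin cDNAs of the 9 genes (67.8% and 70.3%) lay within 50 nt of an annotated acceptor, and 18 of 28 in IgG-(Dyskerin) replicate 1 (64.3%). Such windows make up 3.57% of the loci outside snoRNAs. By gene the share was 67.7% and 74.1% in ZFAS1, 91.7% and 100% in SNHG6 and 18.2% and 19.0% in SNHG5. For all genes, 15.9% and 21.7% of dyskerin cDNAs outside snoRNAs lay that near an acceptor, 6.39% and 5.56% of GAR1 cDNAs, and 16% and 22.5% of IgG-(Dyskerin) cDNAs. The host values rest on 7 acceptors of 3 genes, so they describe these junctions and were not tested against other genes.

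**Figure D4:**
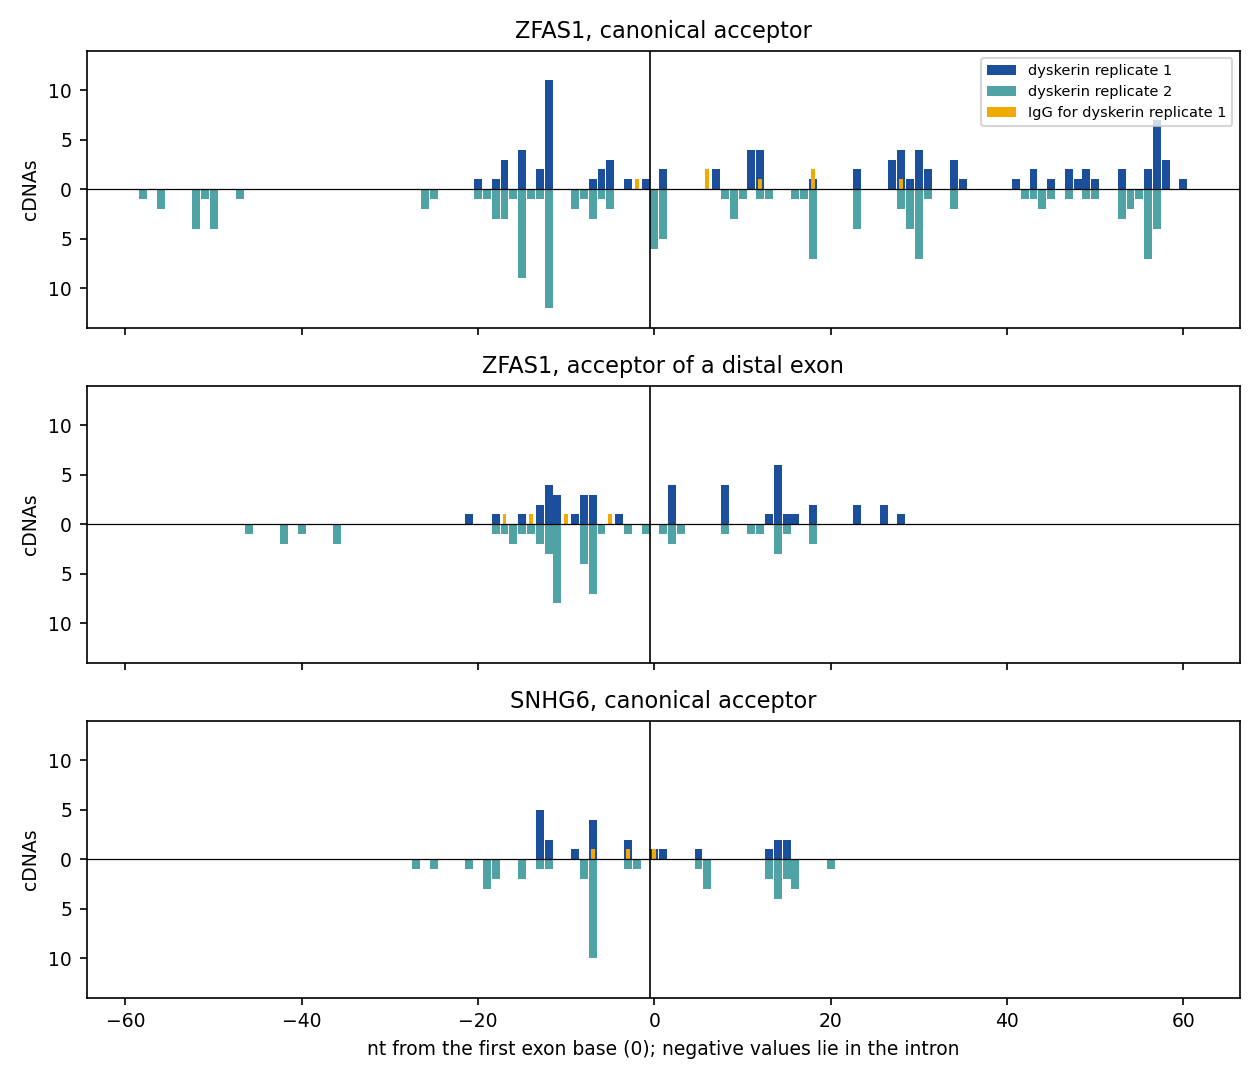
cDNAs per position around the 3 acceptors with sites on both sides, by distance from the first exon base (0), with the intron at negative values. Dyskerin replicate 1 is drawn upward and replicate 2 downward, and narrow bars show replicate 1 of IgG-(Dyskerin), the only IgG library with sites here. The tallest bars stand at 12 nt before ZFAS1 exon 2, with 11 and 12 cDNAs.

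The 30 nt that follow a site were used to look for other places a read could come from. For 256 of the 257 positions they occurred once in GRCh38, and for 1 position in ZFAS1 they occurred 2 times. Only exact matches were counted, so reads shorter than 30 nt or with mismatches could still come from elsewhere. Among the 218 positions away from snoRNA starts the crosslinked base was U at 34.4%, G at 25.2%, A at 20.2% and C at 20.2%, while U makes up 28.1% of the loci. Among the 39 positions just before snoRNAs A was the most frequent base, at 35.9%.

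Dyskerin was then compared with IgG and with GAR1 in a single fit of all features with edgeR (quasi-likelihood F test, Benjamini-Hochberg adjustment over 8832 features, library size set to the peak cDNAs). A feature is the exons or the introns of a gene outside snoRNAs, or a snoRNA. Only 5 host features passed the count filter, the exons of GAS5, SNHG5, SNHG6 and ZFAS1 and the introns of ZFAS1, with 10 counts required in 2 libraries. GAS5 exons passed with 15 in dyskerin replicate 2 and 13 in GAR1 replicate 2, and the other 4 features passed on their dyskerin counts alone. The exons of the other 5 genes and the introns of the other hosts were not tested.

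Against IgG, no host feature was called for dyskerin, while edgeR called 0% of all features higher and 0.102% lower at an adjusted p under 0.05 (exon features 0.0199% lower, intron features 0.202%). Before adjustment, 2792 features were higher with a p under 0.05 and 52 were lower, with none of the 5 host features among them, and DESeq2 called 0 in either direction. On the log2 scale dyskerin minus IgG was 0.96 ± 1.07 for ZFAS1 exons (SE, edgeR adjusted p = 0.542) and −0.89 ± 0.92 for ZFAS1 introns (edgeR adjusted p = 0.497). SNHG5 exons were at −0.75 ± 1.07 (edgeR adjusted p = 0.648) and SNHG6 exons at −0.05 ± 1.15 (edgeR adjusted p = 0.986). For GAS5 exons IgG was at 0, and the limit of 3 counts exceeds the dyskerin level, so no fold is given (edgeR adjusted p = 0.277). Without replicate 1 of IgG-(Dyskerin), the IgG group had no host cDNA at all. In the library then left, 3 cDNAs would be 367 CPM, above the dyskerin level of every host feature. A fit without replicate 1 therefore cannot decide whether dyskerin differs from IgG. The counting interval of the dyskerin over IgG ratio included 1 for the exons of ZFAS1 (CPM ratio 1.88, 95% interval 0.851 to 5.16), SNHG5 (0.585, 0.216 to 2.22) and SNHG6 (0.953, 0.312 to 4.74). For ZFAS1 introns the ratio was 0.494 (0.291 to 0.902), a sum over stretches with unlike IgG counts, as given above. No difference in these exons was detectable at this IgG depth.

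GAR1 against its IgG gave no call among the hosts either, with edgeR adjusted p-values of 0.892 for GAS5 exons and 1 for the other 4. The background was 0% higher and 0.0906% lower (exon features 0.0997% lower, intron features 0.0867%). Before adjustment edgeR had 128 features higher and 415 lower with a p under 0.05, none of them a host feature, and DESeq2 called 112 higher and 18 lower over all features. Both IgG libraries were at 0 throughout, and their joint limit of 9.81 CPM lies above the GAR1 level of every host feature except ZFAS1 introns in replicate 1.

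Between dyskerin and GAR1, 3 of the 4 tested exon features and the tested intron feature were called higher in dyskerin. These 4 features had passed the count filter through dyskerin alone, so a difference in this direction was partly set by the filter, and the calls are given as a description. Over all features edgeR called 92% higher and 2.4% lower in dyskerin, with 98.2% of exon features and 92.4% of intron features higher and 0.479% and 1.59% lower, so calls among the hosts were no more frequent than in the background. ZFAS1 exons differed by 7.10 ± 1.21 (SE, edgeR adjusted p = 2.8e-08), and since GAR1 had 1 cDNA the counting interval of the CPM ratio of 187 ran from 33.2 to 7399. ZFAS1 introns differed by 3.55 ± 0.94 (edgeR adjusted p = 0.00020), but that call was lost without dyskerin replicate 1 (3.21, edgeR adjusted p = 0.313) or replicate 2 (2.94, edgeR adjusted p = 0.328), and the difference was 8.36 without GAR1 replicate 1 and 1.98 without GAR1 replicate 2. SNHG5 exons differed by 4.81 ± 1.10 (edgeR adjusted p = 1.5e-05). SNHG6 exons, at 0 in GAR1, were at least 15.8-fold higher per peak cDNA in dyskerin (edgeR adjusted p = 5.3e-07). GAS5 exons differed by 0.13 ± 0.64 (edgeR adjusted p = 0.839), a CPM ratio of 1.08 with a counting interval of 0.549 to 2.17.

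This comparison depended on how the libraries were scaled, and the share of cDNAs outside snoRNAs differs between the proteins as given above. With library size set to the cDNAs outside snoRNAs and scaRNAs, ZFAS1 exons differed by 3.85 (edgeR adjusted p = 0.012), SNHG6 exons were still called (edgeR adjusted p = 0.033), and SNHG5 exons (1.58, edgeR adjusted p = 0.283) and ZFAS1 introns (−0.14, edgeR adjusted p = 0.897) were not. GAS5 exons were then lower in dyskerin by 3.49 on the log2 scale (edgeR adjusted p = 0.00076). With TMM factors GAS5 exons were lower by 3.36 (edgeR adjusted p = 0.033), SNHG6 exons were called (edgeR adjusted p = 0.034), and ZFAS1 exons (4.12, edgeR adjusted p = 0.090), SNHG5 exons (1.95, edgeR adjusted p = 0.251) and ZFAS1 introns (1.20, edgeR adjusted p = 0.573) were not. The median over all features was 6.58 with all peak cDNAs, 5.64 with cDNAs outside snoRNAs and 5.80 with TMM. Of the 5 host features, GAS5 exons, whose sites are all at snoRNA starts, had the lowest value under each of these scalings.

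As a share of all cDNAs outside snoRNAs in its library, the 9 hosts made up 0.0176% (95% Wilson interval 0.0156 to 0.0200) and 0.0242% (0.0218 to 0.0269) for dyskerin and 0.0370% (0.0212 to 0.0647) and 0.0208% (0.0143 to 0.0302) for GAR1. IgG-(Dyskerin) replicate 1 was at 0.0246% (0.0170 to 0.0356), replicate 2 at 0 with up to 0.127% allowed, and IgG-(GAR1) at 0 with up to 0.0180% and 0.180% allowed. The 4 antibody libraries and the 4 IgG libraries differed by 0.0188 percentage points (two-sided exact permutation test over 70 arrangements, p = 0.114, adjusted over 3 shares p = 0.343). This test cannot decide the question, because the IgG libraries with limits of 0.127% and 0.180% were too shallow to show the antibody shares. The share of locus cDNAs outside the snoRNAs differed by 0.149 percentage points (exact permutation test, p = 0.743, adjusted p = 0.743), and the smallest p this design allows is 0.0286. That test cannot decide for either protein, because it averages dyskerin and GAR1, whose intervals did not overlap. In addition, the IgG limits of 0.850% and 0.741% for this share lay above both GAR1 values. Without replicate 1 of IgG-(Dyskerin) the differences were 0.0249 and 0.489 percentage points, but all remaining IgG values were then 0, and the limits of 0.127% and 0.180% lie above the host share of every antibody library, so no test is given.

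The exon share of the host cDNAs was 69.7% (95% Wilson interval 63.6 to 75.1) and 71.3% (66.4 to 75.7) in dyskerin, 41.7% (19.3 to 68.0) and 96.3% (81.7 to 99.3) in GAR1, and 46.4% (29.5 to 64.2) in replicate 1 of IgG-(Dyskerin). In the other 3 IgG libraries it has no value, since they held no host cDNA. With 4 against 1 library the exact permutation p was 0.6 and could not go below 0.2. The dyskerin replicates differed by less than their intervals, and the GAR1 replicates lay on either side of them with intervals of 12 and 27 cDNAs.

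Lists of other genes give the scale of these levels. Exonic sites in both dyskerin libraries were found for 6 of the 9 hosts, 11 of 20 other snoRNA host lncRNAs, 18 of 31 protein-coding snoRNA hosts and 14 of 14 lncRNAs without a snoRNA. Median dyskerin levels per kb of exon were 0.882, 0.355, 3.40 and 4.83 CPM in that order. In both GAR1 libraries exonic sites were found for 2 of the 9 hosts, GAS5 and SNHG8, for 7 of the 20 other lncRNA hosts, 0 of the 31 protein-coding hosts and 5 of the 14 other lncRNAs. The GAS5 and SNHG8 sites all lay 6 to 14 nt upstream of a snoRNA start. Of the other lncRNA hosts DANCR had the most exonic cDNAs in GAR1, with 5255 and 15419. IgG-(GAR1) held 3447 and 102 there, and dyskerin 1570 and 2407. Scaled to peak cDNAs, DANCR stood at 8976 and 7801 CPM in GAR1 and higher, at 11675 and 9532 CPM, in IgG-(GAR1). Between dyskerin and GAR1, edgeR called higher in dyskerin 3 of 4 tested hosts, 5 of 9 other lncRNA hosts (3 lower), 17 of 17 protein-coding hosts and 12 of 13 other lncRNAs, with the same count filter. Of all tested exon features 98.2% were called higher and 0.479% lower, and the lists were not tested against this background. Sites of a snoRNA missing from both annotations would count as host sites in these lists, and how many there are was not tested.

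Over the 8 libraries the exon features whose log2(CPM + 1) followed the summed host exons most closely were those of HNRNPH1, XPO1, TRIO, HSP90B1 and NASP, with Pearson's r of 0.999, 0.997, 0.997, 0.996 and 0.995. Of 5009 other tested exon features, 92 had an r above 0.95. The 8 points share the same library sizes and fall into few levels, so the values describe a common profile across libraries, high in both dyskerin libraries and in replicate 1 of IgG-(Dyskerin), low in GAR1 and 0 in the other IgG libraries.

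Over all 9 genes the dyskerin replicates shared 65 positions, out of 123 and 172, and these held 156 of 244 and 197 of 355 cDNAs. The GAR1 replicates shared 2 positions, out of 8 and 16, both in GAS5.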

How the data were processed

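iCLIP libraries of 4 groups with 2 replicates each were analysed from the significant crosslink sites that the authors called per library with iCount. According to the methods and the submitters' notes, reads were checked with FastQC 0.11.9, trimmed with Cutadapt, and aligned to GRCh38 with STAR 2.7.0e, keeping up to 50 alignments, and sites were called in windows of 3 nt on either side with 100 permutations at a false discovery rate of 0.05. The deposited values are counts of cDNAs per position, not normalized. Because each library was called on its own, sums of peak cDNAs are not sequencing depths. The deposited cluster files were not used.

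Sites were assigned by strand to GENCODE 44, whereas the authors used release 27. RefSeq added 320 snoRNA or scaRNA entries with a settled strand to the 991 of GENCODE. A further 131 RefSeq entries had no settled strand and were masked on both strands. GAS5 snoRNAs came from RefSeq. Of 13 C/D snoRNAs placed this way, 9 had the C box TGATGA within their first 15 nt on the host strand and 0 on the other strand. Sequences were read from GRCh38.

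edgeR 4.0.16 (limma 3.58.1, R 4.3.3) was run on features that reached 10 counts in 2 or more libraries, with 4 residual degrees of freedom, and was tested on simulated data. Alternatives were TMM, other library sizes, DESeq2 1.42.0, other filters, margins and exon definitions, and libraries left out. Intervals and exact tests used Python 3.11.15, scipy 1.17.1 and statsmodels 0.14.6. All 9 genes are named, with the highest position called in both replicates of a protein in exons and in introns, the 5 most similar exon features, and at most 3 genes per list by dyskerin CPM. The members and lists were chosen with earlier results of these data known.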

Additional observations from a re-analysis of the deposited data

Results flagged for a closer look

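Among the 4 IgG libraries, replicate 1 of IgG-(Dyskerin) stood apart from the other 3 in both shares that are defined for all of them. Its share of host locus cDNAs outside the snoRNAs was 1.36%, and its host share of all cDNAs outside snoRNAs was 0.0246%, while the other 3 libraries were at 0 in both. By this measure chance sets about 1 in 20 groups apart, and with 3 values at 0 any other value stands apart. For the host share, 2 of the 3 libraries at 0 allow up to 0.127% and 0.180%, so they were too shallow to show 0.0246%. The 3 libraries at 0 held 8183, 295255 and 10701 peak cDNAs, against 146514 in the library that stood apart.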

How the results depend on the processing

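The precision is limited by the IgG libraries and by the few host cDNAs. Counts of features called across all genes moved most. Higher in dyskerin than in IgG were 908 features with a filter of 50 counts, against 0, and lower were 0 with TMM, 31 with no filter, 1 with the replicate block and 0 with DESeq2, against 9. For GAR1 against IgG, DESeq2 called 112 higher, and lower were 0 with TMM, 5 with the filter of 50, 4 with no filter, 5 with canonical exons (chosen after seeing the data), 0 with sites of at least 3 cDNAs, 0 with the replicate block and 18 with DESeq2, against 8. For dyskerin against GAR1, 5072 (TMM), 5156 (library size outside snoRNAs), 3690 (filter of 50), 2835 (sites of at least 3 cDNAs) and 4230 (DESeq2) were higher, against 8123, and 345, 725, 112, 110 and 0 lower in the same order, with 88 lower in the replicate block, against 212. Leaving out 1 library gave 0 to 11 higher and 0 to 37 lower for dyskerin against IgG, 0 higher and 0 to 189 lower for GAR1 against IgG, and 6 to 8135 higher and 1 to 380 lower for dyskerin against GAR1, with 6 without dyskerin replicate 1 and 677 without replicate 2. In those last fits a lone sample is assumed to vary like the other groups, and the count filter kept 2370 and 2360 features, so that ZFAS1, SNHG5 and SNHG6 exons were no longer tested.

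Of the host results, SNHG6 exons kept their call for dyskerin against GAR1 in all 16 alternatives that tested them and ZFAS1 exons in 17 of 18 (TMM, adjusted p = 0.090). SNHG5 exons kept it in 11 of 15 and ZFAS1 introns in 14 of 20. These features had passed the count filter through dyskerin alone, and most alternatives kept that filter. A call in this direction was thus partly set in advance, and the calls kept are given as a description. Directions turned for GAS5 exons (−3.49 with library size outside snoRNAs, −3.36 with TMM, −1.89 with no margin), SNHG5 exons (−1.92 with no margin) and ZFAS1 introns (−0.14 with library size outside snoRNAs). Against IgG, no host feature was called under any alternative that kept all 8 libraries. Directions turned there for GAS5 exons with no margin (−1.03). Without replicate 1 of IgG-(Dyskerin), which leaves IgG at 0, they turned for SNHG5 exons, SNHG6 exons and ZFAS1 introns. With 1 library left out these ran from −0.88 to 6.78, −0.16 to 7.09 and −1.10 to 8.46 in that order. SNHG6 exons also turned with DESeq2 (0.42) and canonical exons (0.17). ZFAS1 introns also turned with the replicate block (0.57) and sites of at least 3 cDNAs (8.16). For GAR1 against IgG, DESeq2 gave −0.42 for GAS5 exons, −4.11 for SNHG5 exons, −3.99 for ZFAS1 exons and −0.20 for ZFAS1 introns. The cause was not tested.

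Deviations of same-numbered libraries from their group means correlated between −0.096 and 0.086. These values cannot decide whether same-numbered samples share a culture or batch, which the labels do not say. With the replicate number as a block, 6281 features were higher in dyskerin than in GAR1, and ZFAS1 introns had an adjusted p of 0.0501 and SNHG5 exons of 0.0449 by edgeR.

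The antibody minus IgG difference in exon share, 23.3 percentage points, was −14 with canonical exons and −0.437 with no margin, and it ran from 14.4 to 32.7 with 1 library left out. Without replicate 1 of IgG-(Dyskerin), or with sites of at least 3 cDNAs, it has no value. The difference in the share outside snoRNAs was −5.39 with no margin and −0.0537 to 0.489 with 1 library left out, the lowest without dyskerin replicate 2, and 0.250 with sites of at least 3 cDNAs. The host share of cDNAs outside snoRNAs differed by 0.0147 to 0.0249 with 1 library left out (highest without replicate 1 of IgG-(Dyskerin)) and by 0.0240 with sites of at least 3 cDNAs. No IgG host site held over 2 cDNAs, so that setting puts all IgG libraries at 0, as does leaving out replicate 1 of IgG-(Dyskerin), and neither is read as a test.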
